A study of Homo sapiens with 8 samples.

Results

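Cholesterol and fatty acids are built from acetyl-CoA by a set of enzymes whose genes share the same regulators, and 33 genes of this system were followed across 8 RNA-seq libraries of the human bladder cancer cell lines UM-UC-3 and RT112. The members were chosen by symbol, with earlier results of these data known, and each had an entry in the table of 27475 genes. They comprised 7 genes of the mevalonate branch, 11 of the sterol branch, 5 regulators, 2 genes of cholesterol transport and 8 of the fatty acid branch. Cells of each line received 100 pmol of siRNA for 72 h, either 3 pooled siRNAs that target PAI-1 (siPAI-1) or 3 pooled scrambled siRNAs (Scr), giving 4 groups of 2 libraries. Every group, the controls included, therefore carried siRNA and transfection reagent, no untransfected cells were among the samples, and the lines were kept in RPMI or DMEM medium, so that line and medium cannot be told apart. Levels are given as TPM, a share of the transcripts of a library that is scaled for transcript length, so that genes can be set side by side.

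In the mevalonate branch, acetyl-CoA is condensed and reduced to mevalonate and then turned into farnesyl pyrophosphate. The sterol branch joins farnesyl units into squalene, closes the rings and trims the product to cholesterol, while the fatty acid branch makes malonyl-CoA, builds palmitate and then elongates and desaturates it. The transcription factors SREBP-1 and SREBP-2 (genes SREBF1 and SREBF2) drive most of these genes. They are held in the endoplasmic reticulum with their escort SCAP by the retention proteins INSIG1 and INSIG2 when sterols are plentiful, and move to the Golgi for release when sterols are scarce. INSIG1 is itself a target of SREBP, and so is read as a sign of the activity of the system.

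RT112 held the epithelial and urothelial markers KRT5, EPCAM, GATA3 and UPK1B at over 100 TPM in every library, while UPK1A and UPK3A stayed under 2 TPM. In UM-UC-3 the 12 epithelial and urothelial markers summed to 216 to 235 TPM, against 9003 to 9760 TPM in RT112; KRT18 made up 167 to 186 TPM of that sum and KRT8 and PPARG were also present, while the other 9, EPCAM, CDH1, GATA3 and the uroplakins among them, stayed under 3 TPM. Vimentin (VIM) was between 2852 and 3142 TPM in UM-UC-3. Of the 3 mesenchymal markers, VIM and ZEB1 were lower in RT112 Scr than in UM-UC-3 Scr, by -8.75 and -7.07 in log2(TPM + 0.1). The third, CDH2, went the other way and was higher in RT112 Scr, by 0.96. The 8 markers of other cells summed to 275 to 285 TPM in UM-UC-3 and 22.8 to 27.1 TPM in RT112, nearly all of it in UM-UC-3 from the lysosomal macrophage marker CD68, at 272 to 279 TPM. The part of these markers in the differences between the lines was not tested. PTPRC, CD3E, CDH5, COL1A2 and DCN stayed under 1 TPM in all libraries, PECAM1 reached 1.76 TPM and COL1A1 6.95 TPM. The depth, estimated from the steps between low FPKM values, was 29300000 to 34200000 reads per library. The study describes independent repeats of the knock-down, but more of them than there are libraries in a group, and the labels do not tie the libraries to them or to separate cultures, so that the p-values measure the spread between these libraries, which may be technical.

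All 33 genes were expressed in every library, from 2.00 TPM (TM7SF2 in a UM-UC-3 siPAI-1 library) to 562 TPM (SCD in a UM-UC-3 Scr library). Together they made up 0.326% to 0.351% of all TPM in the UM-UC-3 libraries and 0.284% to 0.371% in those of RT112. The lowest RT112 shares were those of the Scr libraries, 0.284% and 0.299%, and the siPAI-1 libraries were at 0.371% and 0.321%. SCD, FDFT1, FDPS, FASN and DHCR7 ranked highest, each with a mean above that of at least 96.2% of the genes, and FADS2, TM7SF2 and INSIG2 ranked lowest. Only 4 members fell under 10 TPM in any library: TM7SF2, INSIG2, STARD4 and FADS2. The lowest estimate for any member was about 83 reads, for TM7SF2. Reads were estimated with the longest transcript of each gene as its length, so the true number may be lower.

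**Figure D1:**
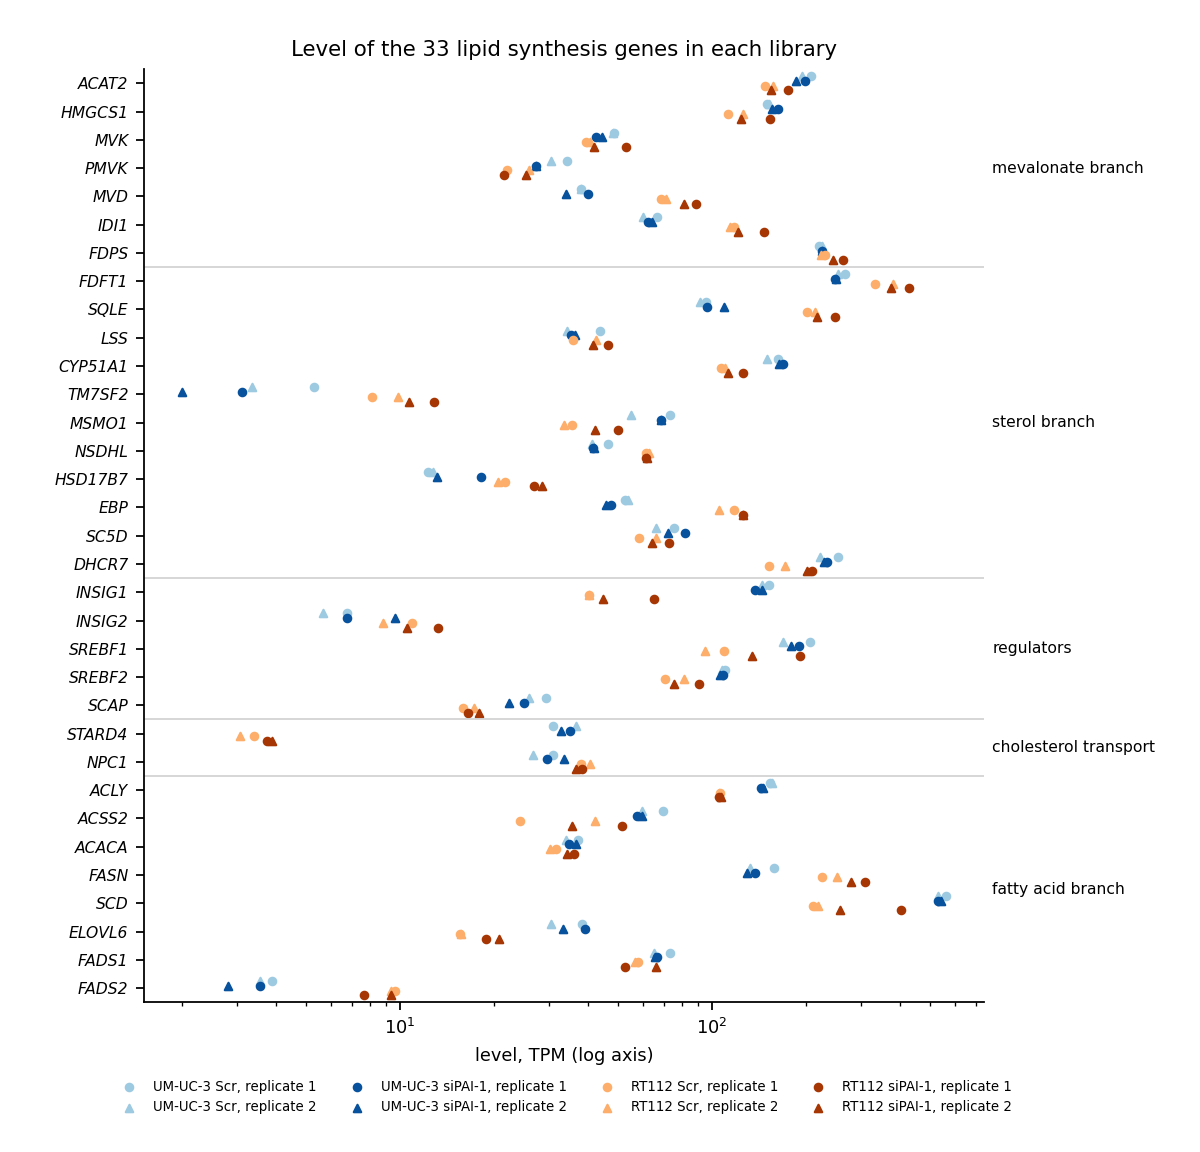
Level of each of the 33 genes in each of the 8 libraries in TPM on a log axis, with the genes in rows by role, circles for replicate 1, triangles for replicate 2 and a colour per group. STARD4, INSIG1, SCD and ELOVL6 lie lower in the RT112 Scr libraries than in UM-UC-3, SQLE, EBP, MVD and FADS2 lie higher, and the lowest point is TM7SF2 at 2.00 TPM.

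The promoters of these genes were read for the elements through which SREBP and its partners act. Windows of 300 bases, from 250 before to 50 after a RefSeq start on GRCh38.p14, were held for 29 of the 33 members (40 windows). The NF-Y box CCAAT, bound by a partner of SREBP, was found on either strand in 62.5% of the member windows and in 34.6% of all 35116 windows. The GC box GGGCGG, bound by Sp1, was in 90% of member windows and 45% of all. The sterol regulatory element-like word TCACNCCAC was in 1 of the 40 windows (2.5%, against 1.13% of all), that of SREBF2, 133 bases before the start. A wider form of it, TCACNNNAC, which was chosen after the strict word had given 1 window and which includes that word, was in 20% of member windows and 10.2% of all, among them those of SREBF2, INSIG1, FDPS and HSD17B7. The E-box CACGTG was in 12.5% against 7.26%. Words were counted on both strands, they mark letters and not binding, and no binding data were used. Member windows that overlap between start sites of 1 gene are counted apart. The 35116 windows were not restricted to genes expressed in these cells, as all members were, nor matched for base content. Whether other expressed genes hold these words as often was not tested.

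In all 6 windows are shown because the comparisons turn on their genes: INSIG1, SCD and STARD4, which were lower in RT112, MVD and EBP, which were higher, and SREBF2 as the sole holder of the strict word. They lie at chr7:155297628-155297927 (plus strand, INSIG1), chr10:100346983-100347282 (plus, SCD), chr5:111512486-111512785 (minus, STARD4), chr16:88663042-88663341 (minus, MVD), chrX:48521558-48521857 (plus, EBP) and chr22:41832855-41833154 (plus, SREBF2) of GRCh38.p14. They are written 5′ to 3′ on the strand of the gene, with the wider sterol element word and the NF-Y box of either strand in capitals.
INSIG1: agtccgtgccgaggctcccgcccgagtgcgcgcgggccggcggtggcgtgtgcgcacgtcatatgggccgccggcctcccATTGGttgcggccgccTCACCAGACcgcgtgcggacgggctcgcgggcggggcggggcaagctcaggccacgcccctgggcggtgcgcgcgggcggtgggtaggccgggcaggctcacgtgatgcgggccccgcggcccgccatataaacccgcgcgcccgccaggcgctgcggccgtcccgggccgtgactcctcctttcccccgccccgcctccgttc
SREBF2: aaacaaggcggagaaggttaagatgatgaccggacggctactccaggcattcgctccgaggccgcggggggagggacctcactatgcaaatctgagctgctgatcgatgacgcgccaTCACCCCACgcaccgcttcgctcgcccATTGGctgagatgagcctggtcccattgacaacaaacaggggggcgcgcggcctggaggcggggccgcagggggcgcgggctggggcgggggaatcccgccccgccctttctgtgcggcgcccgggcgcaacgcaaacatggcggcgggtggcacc
SCD: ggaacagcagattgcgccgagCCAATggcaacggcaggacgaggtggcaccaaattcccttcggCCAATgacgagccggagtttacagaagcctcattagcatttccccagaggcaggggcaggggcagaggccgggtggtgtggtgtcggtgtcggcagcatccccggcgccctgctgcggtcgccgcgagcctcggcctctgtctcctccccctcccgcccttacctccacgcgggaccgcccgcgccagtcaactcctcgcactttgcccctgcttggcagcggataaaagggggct
STARD4: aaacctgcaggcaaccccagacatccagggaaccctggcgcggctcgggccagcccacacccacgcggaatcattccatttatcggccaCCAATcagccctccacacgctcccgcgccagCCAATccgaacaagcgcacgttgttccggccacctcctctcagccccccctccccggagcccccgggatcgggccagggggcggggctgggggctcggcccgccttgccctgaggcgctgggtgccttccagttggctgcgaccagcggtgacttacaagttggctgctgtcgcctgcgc
MVD: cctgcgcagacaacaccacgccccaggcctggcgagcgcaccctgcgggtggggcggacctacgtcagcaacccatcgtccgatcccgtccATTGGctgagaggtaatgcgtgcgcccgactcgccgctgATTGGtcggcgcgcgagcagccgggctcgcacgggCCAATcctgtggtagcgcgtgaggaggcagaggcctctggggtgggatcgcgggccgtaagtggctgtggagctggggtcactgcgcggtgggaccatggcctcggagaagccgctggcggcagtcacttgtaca
EBP: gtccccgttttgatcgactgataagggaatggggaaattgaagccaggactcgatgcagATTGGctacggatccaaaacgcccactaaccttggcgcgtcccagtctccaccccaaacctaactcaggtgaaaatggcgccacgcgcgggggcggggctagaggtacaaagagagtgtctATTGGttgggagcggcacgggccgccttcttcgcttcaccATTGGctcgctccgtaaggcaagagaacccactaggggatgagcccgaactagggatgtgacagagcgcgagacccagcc
The INSIG1 and SREBF2 windows each hold 1 sterol element word and 1 NF-Y box. The other 4 hold no sterol element word, with 2 NF-Y boxes in SCD and STARD4 and 3 in MVD and EBP. The only SREBF1 window read, chr17:17836937-17837236, held neither, and other starts of that gene were not read.

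PAI-1 knock-down was compared with its control in RT112 first, to ask whether the system shifted when PAI-1 was depleted. In RT112, 29 of the 33 genes had a higher mean with siPAI-1 than with Scr, and 4 a lower one: PMVK, NSDHL, NPC1 and FADS2. None passed an adjusted p of 0.05 in limma, in either direction, and neither did any of the 18437 genes tested (0% higher and 0% lower). An unadjusted p under 0.05 was reached by 9 members that were higher and 0 that were lower, which is 27.3% of the members against 3.35% of all genes tested that were higher and 2.42% that were lower. The median log2 difference was 0.18 over the members, 0.014 over all genes tested and 0.0076 over those of at least 1 TPM, of which 52.2% were higher. In 18 members both siPAI-1 libraries lay above both Scr libraries and in 0 members below, where 18% of all genes lay above and 14.7% below. The count of 9 fell to 2 when the prior spread was not modelled on level, to 3 without Scr replicate 1, to 1 without Scr replicate 2 and to 5 without siPAI-1 replicate 1. The genes were tested on log2(TPM + 0.1), and a difference is given on that scale.

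Among the regulators, SREBF1 had the largest difference. It stood at 109 and 95.05 TPM in RT112 Scr and 191 and 135 TPM in its siPAI-1 libraries, a log2 difference of 0.66, SE 0.18, unadjusted p = 0.0183 and adjusted p = 0.838 in limma. Both siPAI-1 libraries were above both controls, but they lay further from each other than the controls did. INSIG1 was at 40.2 and 40.3 TPM in RT112 Scr and 64.9 and 44.5 TPM in its siPAI-1 libraries, with a difference of 0.42, SE 0.19 and unadjusted p = 0.084; the controls were almost equal, and the gain was mainly in 1 library. SREBF2 was at 70.5 and 81.2 TPM in RT112 Scr and 90.6 and 75.7 TPM in its siPAI-1 libraries (0.13, SE 0.12), and its groups overlapped. SCAP was at 15.9 and 17.2 TPM in RT112 Scr and 16.5 and 17.9 TPM in its siPAI-1 libraries and INSIG2 at 10.9 and 8.78 TPM in RT112 Scr and 13.2 and 10.5 TPM in its siPAI-1 libraries, again overlapping, with differences of 0.053, SE 0.11 and 0.27, SE 0.19. SREBF1 makes more than 1 form of SREBP-1 from separate starts, which the table does not separate, and 556 of its exonic bases are shared with RAI1 on the opposite strand.

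In the fatty acid branch, FASN, SCD and ELOVL6 were higher at an unadjusted p under 0.05. SCD, the desaturase that makes oleate and palmitoleate, was at 210.4 and 219 TPM in RT112 Scr and 402 and 256 TPM in its siPAI-1 libraries (0.58, SE 0.22, unadjusted p = 0.0487), so that replicate 1 carried most of the difference. FASN, which builds palmitate, was at 225 and 251 TPM in RT112 Scr and 310.3 and 279 TPM in its siPAI-1 libraries (0.31, SE 0.086, unadjusted p = 0.0184). ELOVL6, which elongates palmitate, was at 15.6 and 15.7 TPM in RT112 Scr and 18.8 and 20.8 TPM in its siPAI-1 libraries (0.34, SE 0.11, unadjusted p = 0.0272). In these genes all siPAI-1 values exceeded all controls. ACACA, the carboxylase that supplies malonyl-CoA, was at 31.6 and 30.2 TPM in RT112 Scr and 36.0 and 34.2 TPM in its siPAI-1 libraries (0.18, SE 0.079), without overlap but with unadjusted p = 0.0749. ACSS2, which activates acetate, had the widest spread of the branch, 24.1 and 42.2 TPM in RT112 Scr and 51.3 and 35.4 TPM in its siPAI-1 libraries, and its difference of 0.42, SE 0.32 was not beyond that spread. ACLY, which cleaves citrate to acetyl-CoA, was level at 106 and 105 TPM in RT112 Scr and 106 and 107 TPM in its siPAI-1 libraries (0.0088, SE 0.052). The polyunsaturated desaturases FADS1 and FADS2, neighbours on opposite strands with 490 shared exonic bases, were at 57.8 and 56.8 TPM in RT112 Scr and 52.6 and 66.0 TPM in its siPAI-1 libraries and at 9.61 and 9.36 TPM in RT112 Scr and 7.65 and 9.37 TPM in its siPAI-1 libraries, with differences of 0.04, SE 0.12 and -0.16, SE 0.16.

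In the sterol branch, DHCR7, HSD17B7 and MSMO1 were higher at an unadjusted p under 0.05, and 7 of the 11 genes had both siPAI-1 libraries above both controls. DHCR7, which reduces the last intermediate of one route to cholesterol, was at 152 and 172 TPM in RT112 Scr and 209 and 201 TPM in its siPAI-1 libraries (0.34, SE 0.076, unadjusted p = 0.00772). HSD17B7, a sterol ketone reductase, was at 21.8 and 20.6 TPM in RT112 Scr and 26.9 and 28.5 TPM in its siPAI-1 libraries (0.39, SE 0.09, unadjusted p = 0.00929). MSMO1, the methylsterol oxidase, was at 35.7 and 33.6 TPM in RT112 Scr and 49.9 and 42.1 TPM in its siPAI-1 libraries (0.41, SE 0.11, unadjusted p = 0.0156). In DHCR7 and HSD17B7 the siPAI-1 libraries were close to each other. EBP, the sterol isomerase, was at 118 and 105 TPM in RT112 Scr and 126 and 126 TPM in its siPAI-1 libraries (0.18, SE 0.075), also without overlap. SQLE, the squalene epoxidase, was at 202 and 214 TPM in RT112 Scr and 248 and 218 TPM in its siPAI-1 libraries (0.16, SE 0.082) and CYP51A1, the lanosterol demethylase, at 107 and 109.8 TPM in RT112 Scr and 126 and 113 TPM in its siPAI-1 libraries (0.14, SE 0.074). The reductase TM7SF2 was at 8.14 and 9.86 TPM in RT112 Scr and 12.8 and 10.7 TPM in its siPAI-1 libraries (0.38, SE 0.18), a low level with a wide error. FDFT1 (squalene synthase), LSS (lanosterol synthase), SC5D (a desaturase) and NSDHL (a sterol dehydrogenase) overlapped between groups, with differences of 0.18, 0.17, 0.14 and -0.013.

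In the mevalonate branch, MVD and FDPS were higher at an unadjusted p under 0.05. MVD, which decarboxylates to isopentenyl pyrophosphate, was at 68.5 and 71.1 TPM in RT112 Scr and 89.0 and 81.2 TPM in its siPAI-1 libraries (0.28, SE 0.073, unadjusted p = 0.0132). FDPS, which makes farnesyl pyrophosphate, was at 231 and 223 TPM in RT112 Scr and 262 and 245 TPM in its siPAI-1 libraries (0.16, SE 0.059, unadjusted p = 0.0469). IDI1, the isopentenyl isomerase, was at 117 and 115 TPM in RT112 Scr and 146 and 121 TPM in its siPAI-1 libraries and MVK, mevalonate kinase, at 39.5 and 40.5 TPM in RT112 Scr and 53.1 and 42.0 TPM in its siPAI-1 libraries, each without overlap and with differences of 0.20, SE 0.10 and 0.24, SE 0.13. HMGCS1, which makes HMG-CoA, was at 113 and 125 TPM in RT112 Scr and 154 and 124 TPM in its siPAI-1 libraries (0.22, SE 0.12): replicate 1 of siPAI-1 stood above the controls and replicate 2 between them. ACAT2, the thiolase that starts the branch, was at 148 and 157 TPM in RT112 Scr and 176 and 155 TPM in its siPAI-1 libraries, also overlapping, and shares 454 of its 2639 exonic bases with TCP1 on the opposite strand. PMVK, phosphomevalonate kinase, was the one member of the branch with a lower mean, 22.02 and 25.8 TPM in RT112 Scr and 21.6 and 25.4 TPM in its siPAI-1 libraries (-0.026, SE 0.14). Of the transport genes, the sterol carrier STARD4 was at 3.40 and 3.06 TPM in RT112 Scr and 3.74 and 3.87 TPM in its siPAI-1 libraries and the lysosomal cholesterol exporter NPC1 at 38.1 and 40.6 TPM in RT112 Scr and 38.3 and 36.5 TPM in its siPAI-1 libraries, with differences of 0.23, SE 0.23 and -0.074, SE 0.077.

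The 2 siPAI-1 libraries of RT112 did not contribute alike. Measured from the mean of the controls, the median member was 0.26 higher in replicate 1 and 0.11 higher in replicate 2 on the log2 scale, while the median of genes of at least 1 TPM was 0.0082 and 0.0092. Replicate 1 had 26 members above both controls and 3 below both, and replicate 2 had 21 and 1. The share of all genes beyond both controls was not counted for single libraries, so these counts have no background to be read against. Without replicate 1, 30 of the 33 members were higher at any p, the 29 above and PMVK, 5 had an unadjusted p under 0.05 and the median was 0.11. Without replicate 2 these values were 27, 11 and 0.26. SREBF1 then differed by 0.41 and by 0.91, and SCD by 0.26 and by 0.91. Replicate 1 also stood apart in genes outside the system: OAS1, an interferon-induced gene, was at 46.7 and 55.1 TPM in RT112 Scr and 87.0 and 54.1 TPM in its siPAI-1 libraries, KRT5 at 879 and 784 TPM in RT112 Scr and 593 and 800.3 TPM in its siPAI-1 libraries and the cadherin CDH2 at 18.2 and 20.6 TPM in RT112 Scr and 7.65 and 17.9 TPM in its siPAI-1 libraries, and their part in the result was not tested. The summed level of the 8 interferon response genes, of which OAS1 was a large part, was 88.1 and 101 TPM in Scr and 128 and 89.4 TPM with siPAI-1. Of these 8 genes, 6 had a negative log2 difference between siPAI-1 and Scr, and 2, OAS1 and IFI6, a positive one. Their median was -0.11.

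**Figure D2:**
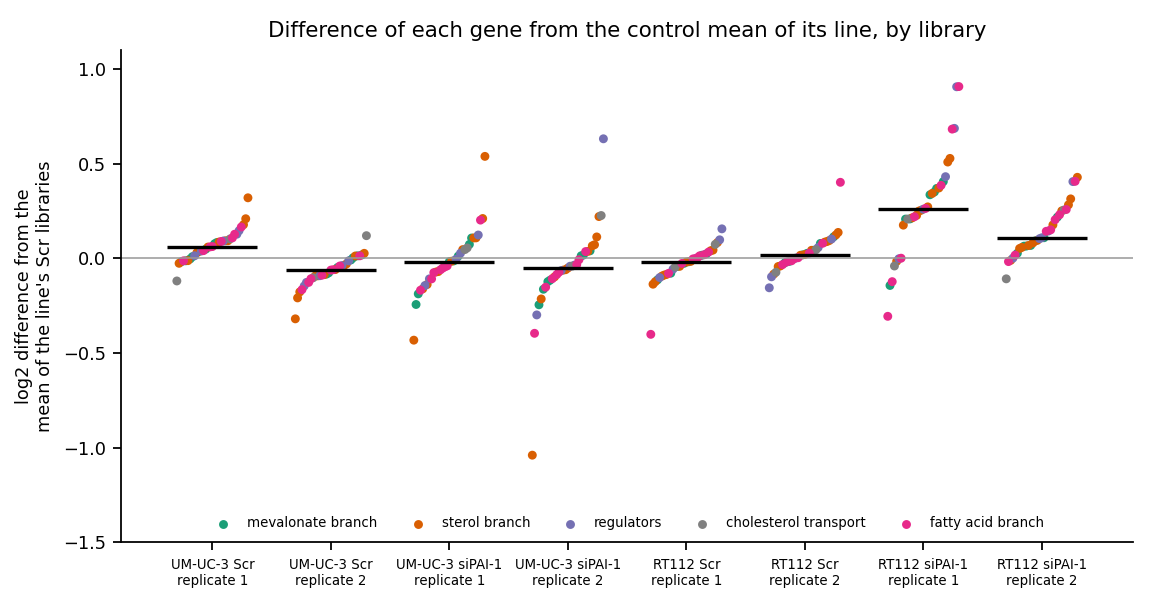
Difference of each of the 33 genes from the mean of the Scr libraries of its line, in log2(TPM + 0.1), by library, with points coloured by role and a black line at the median. The medians of the RT112 siPAI-1 libraries are 0.26 and 0.11, and those of the UM-UC-3 siPAI-1 libraries are -0.018 and -0.051.

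In UM-UC-3 the same knock-down left the system close to its control level. With siPAI-1, 11 members had a higher and 22 a lower mean, and the median log2 difference was -0.033, against -0.0051 over all genes tested. None of the members, and none of the 18528 genes tested, passed an adjusted p of 0.05 in limma (0% in each direction). An unadjusted p under 0.05 was reached by 0 higher and 2 lower members, where 2.6% of all genes were higher and 3.41% lower. Both siPAI-1 libraries lay above both controls in 4 members and below them in 8, where 15.1% and 17.1% of all genes did, so the counts were near the background. Both control libraries also differed from each other: the median member was 0.062 above the control mean in replicate 1 and 0.062 below it in replicate 2, a wider gap than that of the median between the groups. Without Scr replicate 1 the members split into 18 higher and 15 lower, and the median turned to 0.014.

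The 2 members at an unadjusted p under 0.05 were EBP and PMVK. EBP was at 52.7 and 53.6 TPM in UM-UC-3 Scr and 47.5 and 45.8 TPM in its siPAI-1 libraries (-0.19, SE 0.064, unadjusted p = 0.0311, adjusted p = 0.808 in limma). PMVK was at 34.3 and 30.5 TPM in UM-UC-3 Scr and 27.3 and 27.3 TPM in its siPAI-1 libraries (-0.24, SE 0.089, unadjusted p = 0.0406, adjusted p = 0.818). In both genes the siPAI-1 libraries were close together and below both controls. The largest differences in size were those of genes of low level. TM7SF2 was at 5.29 and 3.36 TPM in UM-UC-3 Scr and 3.10 and 2.00 TPM in its siPAI-1 libraries (-0.74, SE 0.36) and INSIG2 was at 6.76 and 5.65 TPM in UM-UC-3 Scr and 6.74 and 9.63 TPM in its siPAI-1 libraries (0.38, SE 0.23). HSD17B7 was at 12.3 and 12.7 TPM in UM-UC-3 Scr and 18.2 and 13.1 TPM in its siPAI-1 libraries (0.31, SE 0.18), where 1 library made the difference. FADS2 was at 3.88 and 3.56 TPM in UM-UC-3 Scr and 3.56 and 2.80 TPM in its siPAI-1 libraries (-0.23, SE 0.25). None of these 4 had an unadjusted p under 0.05.

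Of the regulators in UM-UC-3, INSIG2 had the largest difference, given above, and its groups overlapped. SREBF1 was at 207 and 169 TPM in UM-UC-3 Scr and 190.4 and 179 TPM in its siPAI-1 libraries (-0.019, SE 0.11) and SREBF2 at 110.0 and 108 TPM in UM-UC-3 Scr and 109 and 106 TPM in its siPAI-1 libraries (-0.021, SE 0.052), each with overlapping groups. INSIG1 was at 153 and 145 TPM in UM-UC-3 Scr and 138 and 144 TPM in its siPAI-1 libraries (-0.075, SE 0.058) and SCAP at 29.4 and 25.8 TPM in UM-UC-3 Scr and 24.9 and 22.4 TPM in its siPAI-1 libraries (-0.22, SE 0.11), both with the siPAI-1 libraries below the controls. In the fatty acid branch SCD was at 562 and 531 TPM in UM-UC-3 Scr and 529 and 543 TPM in its siPAI-1 libraries, FASN at 158 and 132 TPM in UM-UC-3 Scr and 137 and 129.7 TPM in its siPAI-1 libraries and ACACA at 37.2 and 34.1 TPM in UM-UC-3 Scr and 34.7 and 36.5 TPM in its siPAI-1 libraries, with differences of -0.026, SE 0.053, -0.11, SE 0.097 and -0.0022, SE 0.082. In these 3 genes the groups overlapped. HMGCS1 was at 150.0 and 153 TPM in UM-UC-3 Scr and 163 and 156 TPM in its siPAI-1 libraries (0.073, SE 0.053) and SQLE at 95.5 and 91.7 TPM in UM-UC-3 Scr and 96.6 and 109 TPM in its siPAI-1 libraries (0.13, SE 0.078), and both had siPAI-1 libraries above the controls. MVK was at 48.5 and 48.0 TPM in UM-UC-3 Scr and 42.3 and 44.3 TPM in its siPAI-1 libraries (-0.16, SE 0.066), below them. The other members were within 0.14 of the controls on the log2 scale.

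**Figure D3:**
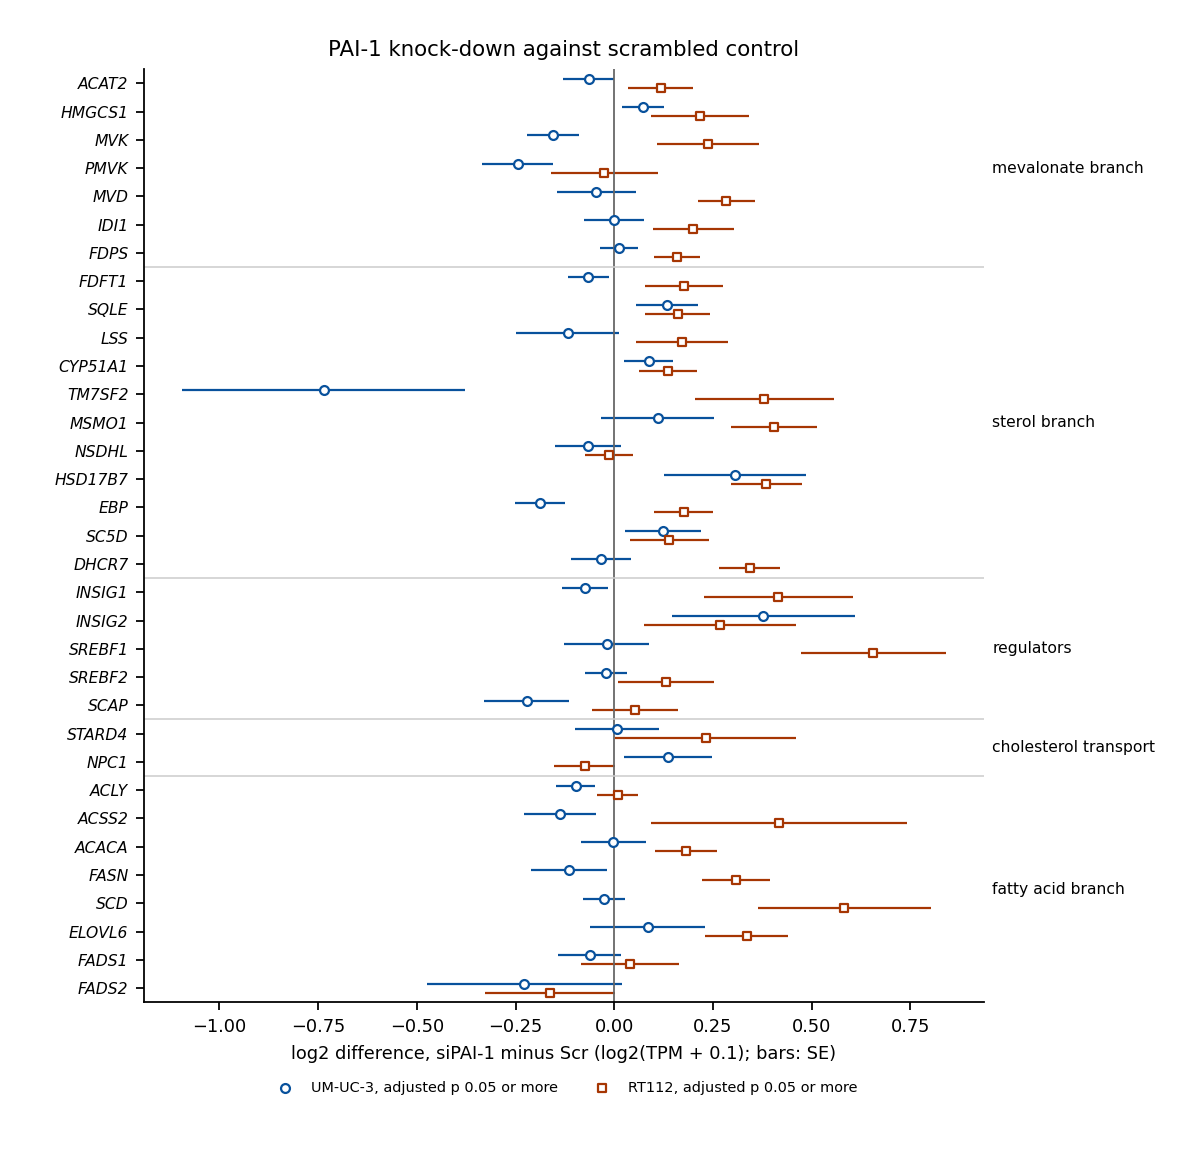
Log2 difference between siPAI-1 and Scr for each of the 33 genes, in log2(TPM + 0.1), with blue circles for UM-UC-3, brown squares for RT112 and bars of 1 SE; open symbols mark an adjusted p of 0.05 or more, which is every gene. In RT112, 29 of 33 points lie above 0 and SREBF1 reaches 0.66, while in UM-UC-3 11 of 33 do.

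Whether the knock-down differed between the lines was tested as the difference of the 2 effects over all 8 libraries. No member passed an adjusted p of 0.05 in limma, and neither did any of the 20274 genes tested (0% in each direction). At an unadjusted p under 0.05 the effect was higher in RT112 for 7 members and lower for 0, where 4% of all genes were higher and 2.76% lower. The 7 were EBP (0.36, SE 0.096, unadjusted p = 0.00757), DHCR7 (0.38, SE 0.12), FASN (0.42, SE 0.15), SREBF1 (0.68, SE 0.25), TM7SF2 (1.12, SE 0.42), MVD (0.33, SE 0.13) and MVK (0.39, SE 0.16), with adjusted p between 0.632 and 0.716. The difference was above 0 in 31 of the 33 members, the exceptions being INSIG2 and NPC1, and its median was 0.22 over the members and 0.016 over all genes tested. In 4 members, EBP, MVK, TM7SF2 and INSIG1, both siPAI-1 libraries lay above both controls in RT112 and below both in UM-UC-3, which is 12.1% of the members, where 3.53% of the 16691 genes tested in both lines did. The difference of effects of SCD was 0.61, SE 0.26 (unadjusted p = 0.0553), of INSIG1 0.49, SE 0.23 and of ACSS2 0.55, SE 0.39. Without RT112 siPAI-1 replicate 2, SCD and INSIG1 passed the adjusted threshold, with differences of 0.93 (adjusted p = 0.032) and 0.76 (adjusted p = 0.0492), while without replicate 1 no member did. Among all genes 123 then passed without replicate 2 and 20 without replicate 1, where none had with all libraries. The count of 7 was 1 without any 1 of UM-UC-3 Scr replicate 1, UM-UC-3 siPAI-1 replicate 2 and RT112 Scr replicate 1, 4 without siPAI-1 replicate 1 of either line, 13 without RT112 siPAI-1 replicate 2 and 2 when the prior spread was not modelled on level.

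The lines were compared next, to describe the starting level of the system. In the Scr libraries, 12 members were higher in RT112 and 15 lower at an adjusted p under 0.05 in limma, that is 36.4% and 45.5% of the members. Of all 19201 genes tested 25.3% were higher and 26.3% lower, and of genes of at least 1 TPM 31.7% and 32.9%, so the share of members called higher was near that of other well expressed genes and the share called lower was above it. By branch, 4 of the 5 regulators were lower and 1 higher, and the sterol branch of 11 had 6 genes higher and 3 lower. The mevalonate branch of 7 had 2 and 4, and the fatty acid branch of 8 had 2 and 3. These are counts of few genes, and whether the branches differ in direction was not tested. With any 1 of the 4 Scr libraries left out, 5 to 6 members were called higher and 5 to 8 lower.

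STARD4 showed the widest gap. It was at 31.0 and 36.6 TPM in UM-UC-3 Scr, 35.0 and 32.7 TPM in UM-UC-3 siPAI-1, 3.40 and 3.06 TPM in RT112 Scr and 3.74 and 3.87 TPM in RT112 siPAI-1, 10.16-fold lower in RT112 Scr than in UM-UC-3 Scr (log2 -3.34, SE 0.14, adjusted p = 0.000495). NPC1 was at 30.8 and 26.7 TPM in UM-UC-3 Scr and 29.6 and 33.6 TPM in its siPAI-1 libraries, and higher in RT112 Scr by 0.45, SE 0.10 on the log2 scale. INSIG1 was 3.68-fold lower in RT112 Scr (log2 -1.88, SE 0.057, adjusted p = 0.000314), with the RT112 libraries at 40.2 and 40.3 TPM and those of UM-UC-3 at 153 and 145 TPM. INSIG2 went the other way, by 0.66, SE 0.18 (adjusted p = 0.0462). SREBF1, SREBF2 and SCAP were lower in RT112, with log2 differences of -0.88, -0.53 and -0.73, with adjusted p of 0.00808, 0.0107 and 0.00772. In each of these 5 regulators the 2 lines did not overlap.

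In the fatty acid branch SCD was 2.55-fold and ELOVL6 2.17-fold lower in RT112 Scr (log2 -1.35, SE 0.051 and -1.12, SE 0.14). ELOVL6 was at 38.2 and 30.3 TPM in UM-UC-3 Scr and 39.2 and 33.3 TPM in its siPAI-1 libraries. ACLY was lower (log2 -0.55, SE 0.046), and was at 153 and 156 TPM in UM-UC-3 Scr and 144 and 146 TPM in its siPAI-1 libraries. FASN was higher by 0.72, SE 0.11 (adjusted p = 0.00937), opposite in direction to SCD and ELOVL6. FADS2 was higher by 1.33, SE 0.14. ACSS2 (-1.01, SE 0.30), FADS1 (-0.27, SE 0.083) and ACACA (-0.20, SE 0.082) were lower in RT112 without passing the threshold. FADS1 was at 73.5 and 65.0 TPM in UM-UC-3 Scr and 66.7 and 65.7 TPM in its siPAI-1 libraries and ACSS2 at 69.5 and 59.8 TPM in UM-UC-3 Scr and 57.3 and 59.8 TPM in its siPAI-1 libraries.

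In the sterol branch SQLE was 2.22-fold and EBP 2.09-fold higher in RT112 Scr (log2 1.15, SE 0.057, adjusted p = 0.000635, and 1.06, SE 0.078, adjusted p = 0.0013). HSD17B7 was higher by 0.75, NSDHL by 0.51, FDFT1 by 0.45 and TM7SF2 by 1.07. NSDHL was at 46.4 and 41.1 TPM in UM-UC-3 Scr, 41.6 and 41.8 TPM in UM-UC-3 siPAI-1, 61.6 and 63.0 TPM in RT112 Scr and 61.6 and 61.8 TPM in RT112 siPAI-1. FDFT1 was at 267 and 253 TPM in UM-UC-3 Scr, 247 and 249 TPM in UM-UC-3 siPAI-1, 333 and 379 TPM in RT112 Scr and 429 and 376 TPM in RT112 siPAI-1, without overlap between the lines. CYP51A1, DHCR7 and MSMO1 were lower, with log2 differences of -0.53, -0.55 and -0.87. CYP51A1 was at 163 and 149.9 TPM in UM-UC-3 Scr and 168 and 164 TPM in its siPAI-1 libraries, DHCR7 at 253 and 222 TPM in UM-UC-3 Scr and 234 and 229 TPM in its siPAI-1 libraries and MSMO1 at 73.4 and 54.9 TPM in UM-UC-3 Scr and 68.4 and 68.7 TPM in its siPAI-1 libraries. LSS, at 43.9 and 34.3 TPM in UM-UC-3 Scr, 35.2 and 36.2 TPM in UM-UC-3 siPAI-1, 35.7 and 42.4 TPM in RT112 Scr and 46.3 and 41.6 TPM in RT112 siPAI-1, and SC5D, at 75.4 and 66.3 TPM in UM-UC-3 Scr, 81.8 and 72.5 TPM in UM-UC-3 siPAI-1, 58.4 and 66.0 TPM in RT112 Scr and 72.7 and 64.4 TPM in RT112 siPAI-1, did not pass the threshold, with differences of 0.006, SE 0.16 and -0.19, SE 0.10.

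In the mevalonate branch MVD and IDI1 were higher in RT112 Scr, by 0.88, SE 0.059 (adjusted p = 0.0011) and 0.87, SE 0.074 (adjusted p = 0.00184). MVD was at 37.9 and 38.1 TPM in UM-UC-3 Scr and 40.0 and 33.9 TPM in its siPAI-1 libraries and IDI1 at 66.8 and 60.0 TPM in UM-UC-3 Scr and 62.5 and 64.0 TPM in its siPAI-1 libraries. ACAT2, HMGCS1, MVK and PMVK, which stand upstream of them, were lower, with log2 differences of -0.40, -0.35, -0.27 and -0.44. ACAT2 was at 208 and 194 TPM in UM-UC-3 Scr and 199 and 185 TPM in its siPAI-1 libraries. FDPS, at 219.9 and 226 TPM in UM-UC-3 Scr and 225 and 225 TPM in its siPAI-1 libraries, was the 1 gene of the branch with no call (0.026, SE 0.046).

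**Figure D4:**
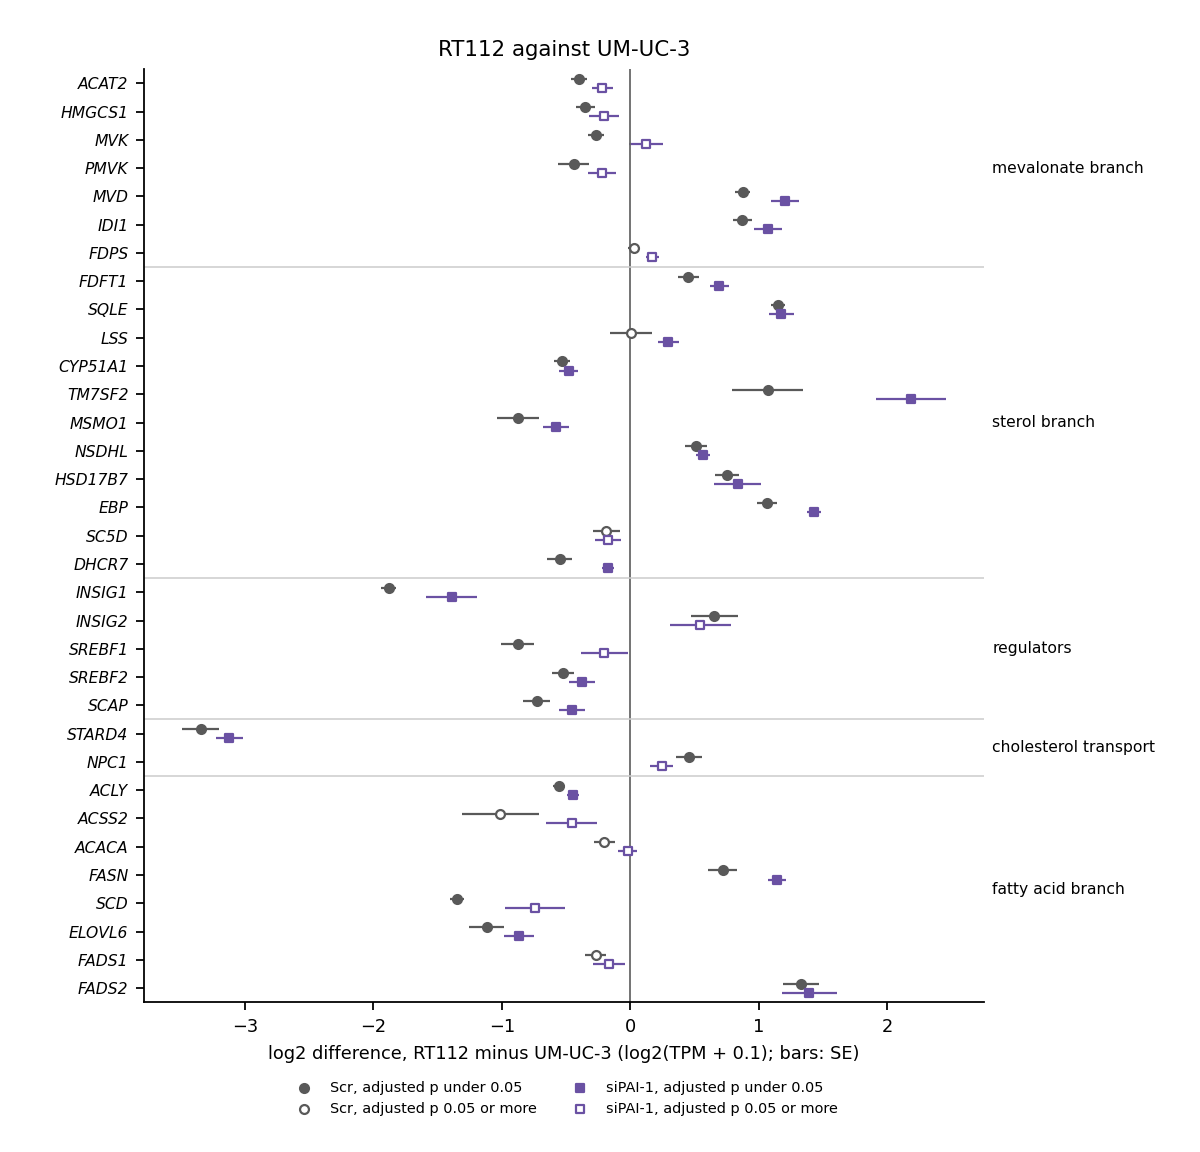
Log2 difference between RT112 and UM-UC-3 for each of the 33 genes, in log2(TPM + 0.1), with grey circles for the Scr libraries, purple squares for the siPAI-1 libraries and bars of 1 SE; filled symbols mark an adjusted p under 0.05. STARD4 lies farthest to the left, at -3.34 and -3.12, and 12 circles on the right and 15 on the left are filled.

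The line comparison was repeated in the siPAI-1 libraries, which the Scr comparison does not use. There 11 members were higher in RT112 and 9 lower at an adjusted p under 0.05, where 26.2% of the 19359 genes tested were higher and 26.1% lower. Of genes of at least 1 TPM, 32.5% were higher and 32.9% lower, against 33.3% and 27.3% of the members. Both shares of members were thus near those of such genes, and the larger share called lower with Scr was not seen here. The counts were 5 and 2 without UM-UC-3 siPAI-1 replicate 1, 3 and 2 without replicate 2, and 5 and 8 without RT112 siPAI-1 replicate 1. Of the 12 members higher with Scr, 10 were also called higher with siPAI-1, and of the 15 lower, 9. STARD4 (-3.12, SE 0.10), EBP (1.43, SE 0.052), SQLE (1.18, SE 0.099), MVD (1.2045, SE 0.11), IDI1 (1.07, SE 0.11) and INSIG1 (-1.39, SE 0.20) kept their direction, and FASN was higher by 1.14, SE 0.073 (adjusted p = 0.00103). NSDHL, ACLY, FDFT1 and ELOVL6 were also called, at 0.56, -0.45, 0.69 and -0.87. TM7SF2 was higher by 2.19, SE 0.27, FADS2 by 1.39, SE 0.21, and LSS, not called with Scr, by 0.30, SE 0.082 (adjusted p = 0.044).

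The 6 members lower with Scr and not called with siPAI-1 were SREBF1, SCD, HMGCS1, ACAT2, MVK and PMVK. SREBF1 was at -0.20 (adjusted p = 0.408) and SCD at -0.74, SE 0.23 (adjusted p = 0.0617). For SREBF1 the RT112 siPAI-1 libraries, at 191 and 135 TPM, straddled the range of the UM-UC-3 siPAI-1 libraries, at 190.4 and 179 TPM. INSIG2 and NPC1 were the 2 members higher with Scr and not called with siPAI-1 (0.55, SE 0.24 and 0.24, SE 0.092). A call in one comparison and none in the other is not a test of the difference; that test is the one of the effects above, in which no member passed the adjusted threshold.

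**Figure D5:**
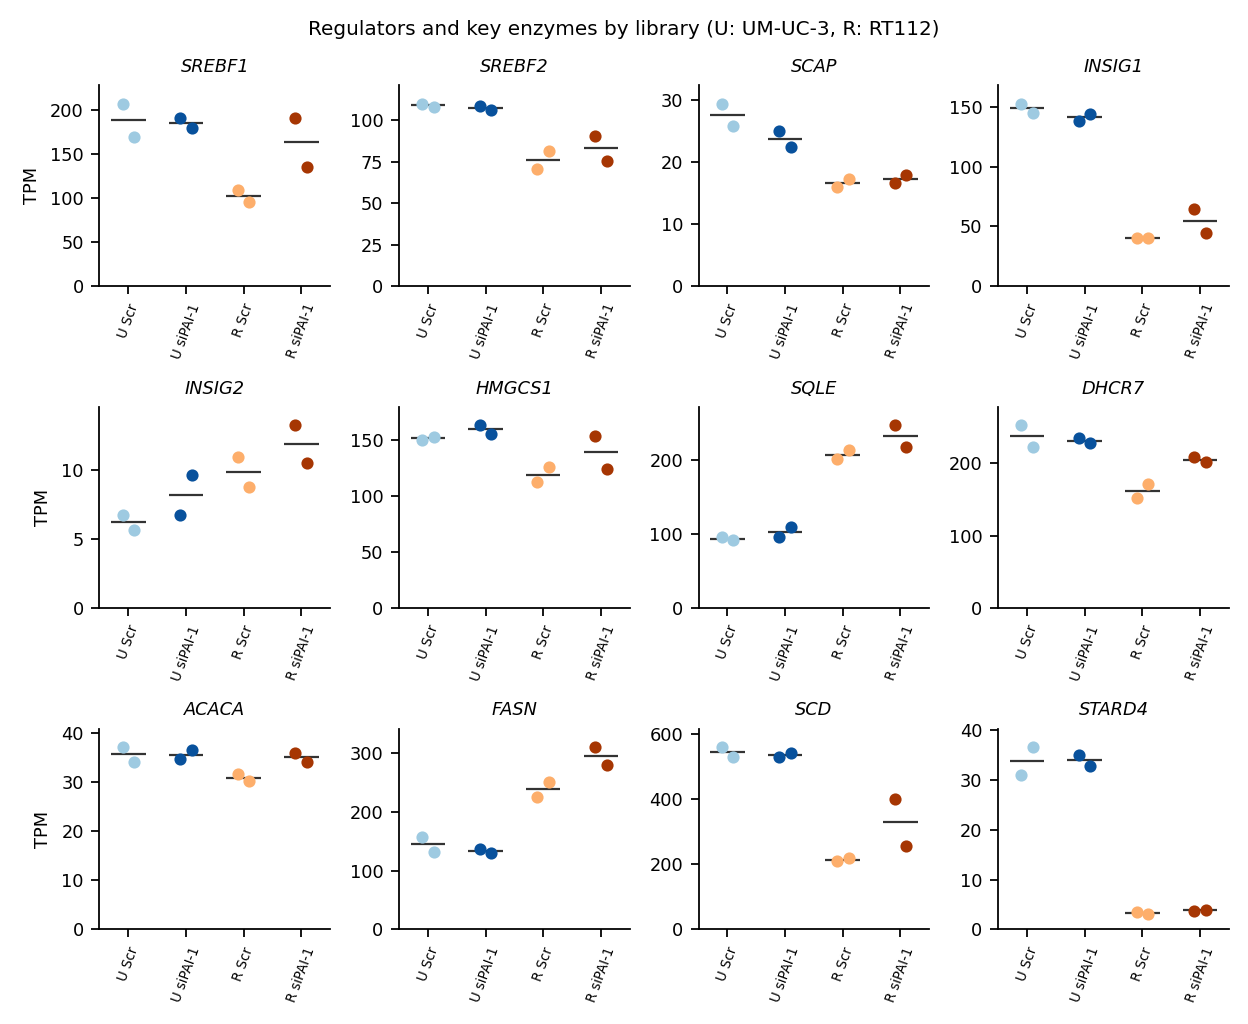
Level in TPM, on axes that start at 0, of the 5 regulators and 7 enzymes or carriers in each library, with 2 points per group and a line at their mean (U, UM-UC-3; R, RT112). SREBF1 and SCD in RT112 siPAI-1 show 1 library well above the other (191 and 135 TPM, 402 and 256 TPM), and INSIG1 and STARD4 are low in all RT112 libraries.

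A further 60 genes around the system, which are no members, were counted as context: processing and degradation of SREBP and its partners, sterol efflux and esterification, isoprenoid side branches and further fatty acid enzymes. In RT112 their median knock-down difference was 0.02, with 32 of the 58 tested higher, and in UM-UC-3 also 0.02, with 33 of 57 higher, against a median of 0.18 and 29 of 33 higher for the members in RT112. None passed the adjusted threshold. At an unadjusted p under 0.05 in RT112, the sterol-regulated membrane protein TMEM97 was higher, 82.5 and 82.8 TPM in RT112 Scr and 104 and 93.7 TPM in its siPAI-1 libraries (0.25, SE 0.072), and the elongase ELOVL5, 45.6 and 45.2 TPM in RT112 Scr and 36.2 and 38.7 TPM in its siPAI-1 libraries (-0.28, SE 0.074), and the side branch enzyme PDSS1, 35.9 and 32.2 TPM in RT112 Scr and 29.6 and 27.5 TPM in its siPAI-1 libraries (-0.25, SE 0.096), were lower. In UM-UC-3 the cholesterol esterifying enzyme SOAT1 was higher, 40.3 and 41.5 TPM in UM-UC-3 Scr and 47.2 and 47.5 TPM in its siPAI-1 libraries (0.21, SE 0.064), as was the oxysterol receptor LXR-alpha (NR1H3), at the low levels of 0.49 and 1.18 TPM in UM-UC-3 Scr and 1.70 and 2.55 TPM in its siPAI-1 libraries (1.33, SE 0.52). That makes 1 higher and 2 lower of 58 in RT112, where 3.35% of all genes tested were higher and 2.42% lower. For UM-UC-3 it makes 2 higher and 0 lower of 57, where 2.6% of all genes were higher and 3.41% lower. These counts were near the background.

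Between the lines with Scr, 20 of the 58 other genes tested were higher in RT112 and 18 lower at an adjusted p under 0.05 in limma. Of all genes tested 25.3% were higher and 26.3% lower, and of genes of at least 1 TPM 31.7% and 32.9%. The counts were thus near those of well expressed genes, and the genes named next are those with the smallest p. Lower were the ubiquitin ligase RNF145 (-1.89, SE 0.063), the elongase ELOVL2 (-6.87, SE 0.25), the oxysterol receptor LXR-beta (NR1H2, -1.42, SE 0.061), the elongation reductase TECR (-0.83, SE 0.051) and the phosphatidate phosphatase LPIN1 (-3.25, SE 0.22). Higher were the lysosomal cholesterol esterase LIPA (1.59, SE 0.053), the acyl-CoA synthetase ACSL5 (6.88, SE 0.42), the sterol exporter ABCG1 (4.39, SE 0.28) and the lipoprotein receptor SCARB1 (1.98, SE 0.13). ELOVL2 in RT112 and ABCG1 in UM-UC-3 lay near or under the added 0.1 TPM, on which their differences depend. The difference of ACSL5 was larger with siPAI-1, at 8.07, SE 0.49, and whether it too depends on the added 0.1 TPM was not tested. MLXIPL, which encodes the carbohydrate response factor ChREBP, was listed at 0 in both UM-UC-3 Scr libraries and at 3.62 and 2.40 TPM in RT112 Scr. Genes of sterol efflux differed in both directions. ABCG1 and NR1H3 were at 4.47 and 4.11 TPM and at 43.4 and 36.6 TPM in RT112 Scr, against 0.12 and 0.10 TPM and 0.49 and 1.18 TPM in UM-UC-3 Scr. The cholesterol exporter ABCA1 was lower in RT112 (-2.03, SE 0.29, adjusted p = 0.00702 in limma), at 0.09 and 0.10 TPM in RT112 Scr and 0.71 and 0.68 TPM in UM-UC-3 Scr, levels at which the difference also depends on the added 0.1 TPM.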

How the data were processed

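Total RNA was taken from 8 samples of the established bladder cancer lines UM-UC-3 and RT112, and libraries were made with a stranded mRNA kit and sequenced as single 75 base reads. The submitters' processing notes name STAR 2.5.0, RSEM 1.2.25 and the build GRCh38. The deposited values are TPM per gene, with FPKM in a second deposited table; the strand setting of the counting is not given in the sources used here. The 92 spike-in entries were set aside, which left 27475 genes, 7201 of them at 0 in all libraries. Neither table holds counts, so no count model was run. The depth of each library was estimated as the number of reads, sought between 20000000 and 45000000, at which low FPKM values of genes with 1 transcript came closest to whole reads.

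Members were tested in limma 3.58.1 (R 4.3.3) on log2(TPM + 0.1), with lmFit and eBayes with a trend, two-sided, in a fit over all genes above 0 in at least 1 library of the comparison, and p was adjusted by Benjamini-Hochberg over all of them. Comparisons were siPAI-1 against Scr in each line, RT112 against UM-UC-3 in the Scr and in the siPAI-1 libraries, and the difference of the knock-down effects. An exact permutation test of 2 against 2 libraries cannot go below p = 0.333. The fit was tested on simulated data in which the changed genes differed by 2 on the log2 scale, in either direction. These differences were larger than those of any member in the knock-down comparisons, so recovery of smaller ones was not tested. The members and the gene lists were chosen with earlier results of these data known, so the counts over members are descriptions. Named were all members by role, with the values of every library for the regulators, HMGCS1, SQLE, FASN, SCD and ACACA and for members that passed a threshold or ranked among the 5 largest differences. Promoter windows and coordinates were taken from RefSeq (GRCh38.p14) and matched by symbol; exon overlaps were taken from a GENCODE annotation lifted to GRCh37, without coordinates. Windows of ACAT2, FDFT1, SQLE and FASN were not analysed here, nor were further genes of the pathway. The level of the targeted transcript is not reported here. Alternatives were pseudocounts of 1 and 0.01 TPM, the FPKM table instead of TPM, a median ratio rescaling, a mean of at least 1 TPM, a fit over all 8 libraries, the replicate number as a block, eBayes without a trend, and each library left out in turn.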

Additional observations from a re-analysis of the deposited data

Results flagged for a closer look

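In 4 members both siPAI-1 libraries lay beyond both controls in opposite directions in the 2 lines, higher in RT112 and lower in UM-UC-3, which is 12.1% of the members against 3.53% of the 16691 genes tested in both lines. The effect in RT112 minus that in UM-UC-3 was 0.36 on the log2 scale for EBP (unadjusted p = 0.00757, adjusted p = 0.632 in limma), 0.39 for MVK (unadjusted p = 0.0417, adjusted p = 0.716), 1.12 for TM7SF2 (unadjusted p = 0.0339, adjusted p = 0.698) and 0.49 for INSIG1 (unadjusted p = 0.0681, adjusted p = 0.767). None passed the adjusted threshold. TM7SF2 had the lowest level of the 4, and the INSIG1 value rests mainly on RT112 siPAI-1 replicate 1.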

How the results depend on the processing

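Of 2079 values of the 33 members under an alternative, 58 had the opposite sign to the reported one, and in none of these had the reported value passed its threshold (an adjusted p under 0.05 between the lines and an unadjusted p under 0.05 otherwise). The 0 members with an adjusted p under 0.05 in each knock-down comparison stayed at 0 under every alternative, and leaving out 1 library at a time gave 0 to 2 members for the difference of effects. Leaving out 1 library at a time also gave 5 to 6 members higher and 5 to 8 lower for RT112 against UM-UC-3 with Scr (12 and 15 with all libraries), 3 to 8 higher and 2 to 8 lower with siPAI-1 (11 and 9), and 27 to 31 members higher and 2 to 6 lower at any p for the knock-down in RT112 (29 and 4); a lone library was assumed to vary like the others. At an unadjusted p under 0.05 the 9 higher members of RT112 ranged from 1 to 11 and the 7 of the difference of effects from 1 to 13, and eBayes without a trend gave 2 in each. With the replicate number as a block the line comparisons called 11 and 14 members with Scr and 10 and 9 with siPAI-1, the knock-down comparisons 0, and the median knock-down difference in RT112 was 0.18. Same-numbered libraries showed no shared shift: their deviations correlated at r = 0.044 in UM-UC-3 and -0.043 in RT112 over 12803 genes. Such a correlation cannot tell whether same-numbered libraries came from the same experiment.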
